A study of Mus musculus with 16 samples.

Results

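The genes described here encode 10 abundant proteins that the mouse seminal vesicle (SV) secretes: *Svs1*, *Svs2*, *Svs3a*, *Svs3b*, *Svs4*, *Svs5*, *Svs6*, *Sva*, *Pate4* and *Ceacam10*. They were taken by name as a fixed list, chosen with earlier results of these data known. All 10 were found among the 31274 genes of the expression table. Each of the 10 had a mean FPKM (fragments mapped to a transcript, scaled to its length and to the depth of the library) over 1 in some group, the minimum for testing, as did 15988 genes in all. RNA was sequenced from the SVs of 5-week-old C57BL/6 male mice in 4 groups of 4 samples. WT-veh and WT-DES samples came from wild-type mice, and αERKO-veh and αERKO-DES samples from mice that lack a working oestrogen receptor α (ERα) in every tissue. DES (diethylstilboestrol, a synthetic oestrogen) was injected under the skin at 2 µg per pup per day in corn oil on days 1 to 5, counting the day of birth as day 1, and the vehicle (veh) groups received the same volume of corn oil. The WT pups were born to purchased pregnant females and the αERKO pups to heterozygous breeders, so genotype and colony cannot be told apart. The SV was dissected free of the anterior prostate. The methods describe 4 single mice for each group other than WT-DES, for which RNA was extracted from 3 pools of mice, while the sequencing is given as 4 samples per group. Values of WT-DES may therefore be averages over several mice, and if the 4 WT-DES samples came from those 3 pools, some share a pool, n = 4 is more than the separate samples, and p-values with WT-DES are too small.

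The SV is an androgen-dependent gland whose luminal epithelial cells make most of the fluid of the mouse ejaculate. SVS2, the product of a gene related to human semenogelin, is cross-linked after ejaculation by prostate transglutaminase into the copulatory plug, together with SVS1 and SVS3. The small SVS4, SVS5 and SVS6 proteins come from genes of the same rapidly evolving family, and SVA, PATE4 and CEACAM10 bind to sperm and alter their motility or capacitation.

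The members lie at 5 places in the genome (GENCODE M21 on GRCm38). *Svs2* (164235929 to 164238466, minus strand), *Svs3b* (164254363 to 164256640, minus), *Svs4* (164275952 to 164278459, minus), *Svs3a* (164289268 to 164291500, plus), *Svs6* (164316751 to 164318453, plus) and *Svs5* (164332740 to 164334396, plus) follow each other on chromosome 2 over 98.5 kb, with 0 other protein-coding genes between them. *Sva* (42038394 to 42042851, plus) and *Svs1* (48986861 to 48991722, plus) are on chromosome 6, *Ceacam10* (24777206 to 24784657, plus) is on chromosome 7, and *Pate4* (35607093 to 35611941, minus) is on chromosome 9. *Svs3a* and *Svs3b* were identical at 92.6% of the bases of the shorter transcript, and 41.2% of the 50-base windows of *Svs3a* also occurred in *Svs3b*. Their separate values are therefore uncertain, since fragments from the shared stretches could have been assigned to either gene.

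Promoter sequences (RefSeq, GRCm38.p6) were found for 9 of the 10 members. The motif TATAAA, the TATA box at which transcription starts are positioned in many strongly expressed genes, was searched on the coding strand of the 50 bases before each start. It was present in 5 of the 9, which are 5 of the 6 members on chromosome 2, and in 2.88% of all 27025 promoters. The 30-base windows around it are shown because these neighbouring genes lost expression together yet to unequal degrees. TATAAA is in capitals, and the distance is that from its first base to the start.
Svs3a (chr2:164289227-164289256, plus strand, 28 bases before the start): tagcaaagaacaTATAAAtgagaagatcag
Svs3b (chr2:164256654-164256683, minus strand, 28 bases before the start): cagaaaagaacaTATAAAtgagaagatcag
Svs4 (chr2:164278318-164278347, minus strand, 28 bases before the start): acctgagaaataTATAAAttaagaactcag
Svs5 (chr2:164332725-164332754, plus strand, 28 bases before the start): ggcaaggaaataTATAAAggagaatcttag
Svs6 (chr2:164316707-164316736, plus strand, 32 bases before the start): ggcaaggaaataTATAAAggagtatcttag
The windows of *Svs5* and *Svs6* matched at 29 of 30 bases and those of *Svs3a* and *Svs3b* at 28 of 30, while the other pairs matched at 17 to 19 of 30. The starts used are those of RefSeq. GENCODE places the *Svs4* and *Svs5* starts further upstream, so that the *Svs4* window lies wholly inside the annotated gene and the *Svs5* window spans its start. In the 250 bases before the start, on both strands, AGAACA, a hexamer bound by steroid receptors, was found for 7 of the 9 (*Svs1*, *Svs3a*, *Svs3b*, *Svs5*, *Svs6*, *Sva* and *Ceacam10*) and in 16.2% of all promoters. GATAAG, the motif of GATA factors, was found for the same 5 genes that had TATAAA and in 6.60% of all promoters. GGTCA, the core of an oestrogen response element, was found for *Svs2* and *Sva* and in 34.9% of all promoters, and these matches are descriptions of the sequence alone.

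*Esr1*, the gene for ERα, checks the genotype. WT-veh samples had 2.81 to 4.55 FPKM and WT-DES samples 8.74 to 19.6, while αERKO-veh samples had 1.30 to 1.75 and αERKO-DES samples 0.91 to 1.64, with no overlap between the genotypes. FPKM give no depth per sample, and the precision rests on the spread between samples. The FPKM of all genes summed to between 375207 and 437619 in WT-DES samples and to between 479045 and 652708 in the 12 others. In 4 samples a gene that is no member held over 2% of the sum: *TRBV16\*01* in WT-DES samples 3 (54959 FPKM, 12.6%) and 4 (13404 FPKM, 3.33%), *Snord83b* in WT-veh sample 4 (30648 FPKM, 4.70%) and *Mir704* in αERKO-DES sample 4 (13615 FPKM, 2.56%).

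In WT-veh SVs the secretory genes were among the most abundant of the table. The 10 genes together held 10.3% ± 1.10 (SD, n = 4) of the FPKM sum, with 8.96% in the lowest and 11.6% in the highest sample. All 10 were among the 20 genes with the highest mean FPKM, and the first 3 places were taken by *Svs5* (mean 10817 FPKM), *Svs4* (10333) and *Svs2* (9065). The other 10 of the 20 were *A630095E13Rik*, *9530003J23Rik*, *Spinkl*, *Spink3*, *Snord83b* (through sample 4 alone), *B2m*, *Cd52*, *DQ539915*, *Rpl41* and *Pbsn*. FPKM is scaled to transcript length, but changes between groups still went with length in these data. The order of genes by level is therefore approximate.

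The order of the members in WT-veh fell into 3 levels. *Svs5*, *Svs4* and *Svs2* formed the highest, and the ranges of neighbours in this order overlapped, although *Svs5* was above *Svs4* and *Svs4* above *Svs2* within each of the 4 samples. *Ceacam10* (mean 5813 FPKM), *Svs6* (5672) and *Pate4* (5456) came next with overlapping ranges, and all their values were below those of *Svs2*. *Svs1* (4197), *Sva* (4034), *Svs3a* (3834) and *Svs3b* (3684) were the lowest, below every *Pate4* value and overlapping among themselves.

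Neonatal DES left WT SVs with a small part of this expression at week 5. In WT-DES the 10 genes held 1.499% ± 0.712 (SD, n = 4) of the FPKM sum, at 2.06%, 0.702%, 1.10% and 2.14% in samples 1 to 4, and their mean summed FPKM was 10.1-fold lower than in WT-veh. All 10 genes fell (limma on log2(FPKM + 1), adjusted p from 2.39e-07 to 5.70e-06), where 23.9% of all tested genes were called lower. Calls required a Benjamini-Hochberg adjusted p no higher than 0.05, means that differed 1.5-fold or more and a mean over 1 FPKM in either group. The median log2 change of the members was −4.17, and that of all tested genes was −0.01. In whole SVs, fewer secretory cells and less RNA per cell cannot be told apart.

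**Figure D1:**
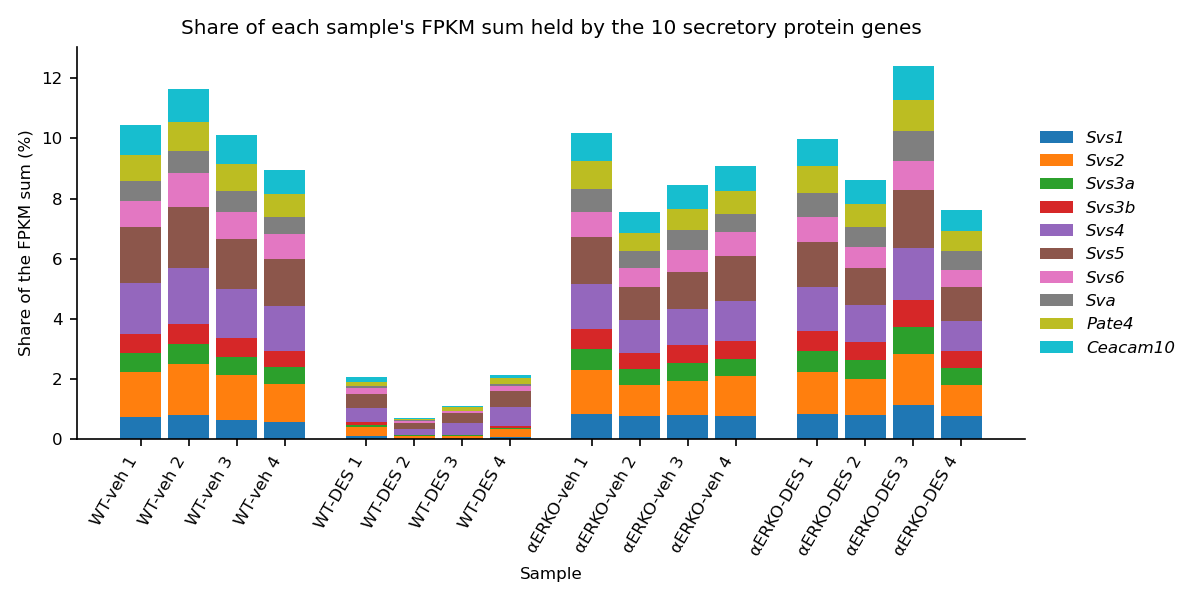
Share of each sample's FPKM sum (percent, linear axis from 0) held by the 10 secretory protein genes, stacked by gene, in the 16 samples. The 4 WT-DES bars reach 0.702% to 2.14%, and the 12 other bars reach 7.56% to 12.4%.

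Of the members on chromosome 2, *Svs4*, an androgen-regulated gene for a small basic secretory protein, kept the most. Its FPKM was 10445, 10901, 10074 and 9914 in WT-veh samples 1 to 4 and 2002, 771, 1766 and 2476 in WT-DES samples 1 to 4. The groups were far apart, and WT-DES sample 2 was the lowest. The log2 change was −2.68 (SE 0.34, limma adjusted p = 5.70e-06), a 5.89-fold lower mean. *Svs5*, whose product is a short secretory protein, had 11112, 11903.5, 10084 and 10167 FPKM in WT-veh and 1991, 739, 1390 and 2107 in WT-DES. The WT-DES samples followed the same order as for *Svs4*, from sample 4 down to sample 2, and the log2 change was −2.90 (SE 0.34, limma adjusted p = 2.44e-06). *Svs6*, its close relative, ranged from 5308 to 6659 FPKM in WT-veh and from 241 to 928 in WT-DES, a log2 change of −3.56 (SE 0.36, limma adjusted p = 5.68e-07).

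The genes for plug proteins lost more. *Svs2* had 9085, 10031, 8946 and 8196 FPKM in WT-veh and 1215, 325, 439.95 and 1039.7 in WT-DES. Samples 2 and 3 of WT-DES were clearly below samples 1 and 4, and the log2 change was −3.79 (SE 0.38, limma adjusted p = 4.25e-07). *Svs3a* had 3858, 4069, 3815 and 3596 FPKM in WT-veh and 363, 63.3, 50.7 and 239 in WT-DES. WT-DES samples 2 and 3 were again the lowest, and the log2 change was −4.88 (SE 0.48, limma adjusted p = 3.68e-07). *Svs3b*, its near-copy, ranged from 3431 to 3939 FPKM in WT-veh and from 52.6 to 350.2 in WT-DES, with a log2 change of −4.81 (SE 0.47, limma adjusted p = 3.33e-07). *Svs1*, which encodes a protein related to copper amine oxidases, had 4406, 4662, 3913 and 3807 FPKM in WT-veh and 447, 80.2, 45.0 and 273 in WT-DES. Its WT-DES samples spanned 9.95-fold, the widest of the 10 genes, and its log2 change was −4.84 (SE 0.51, limma adjusted p = 8.16e-07).

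The remaining 3 genes encode sperm-binding proteins of other families. *Sva*, which codes for seminal vesicle antigen, a suppressor of sperm motility related to prolactin-inducible protein, had 3931, 4330.2, 4222 and 3650.45 FPKM in WT-veh and 335, 67.0, 48.9 and 228.5 in WT-DES. This was the deepest loss of the members, with a log2 change of −4.98 (SE 0.47, limma adjusted p = 2.39e-07) and a 23.7-fold lower mean. *Ceacam10*, for a secreted member of the carcinoembryonic antigen family, had 5900.0, 6399.8, 5735 and 5219 FPKM in WT-veh and 651, 129.7, 106 and 419 in WT-DES. Samples 2 and 3 of WT-DES were the lowest, as for *Sva*, and the log2 change was −4.54 (SE 0.45, limma adjusted p = 4.35e-07). *Pate4*, also known as *Svs7*, for a calcium transport inhibitor of the PATE family, had 5337, 5829, 5568 and 5088 FPKM in WT-veh and 541, 153, 582 and 838 in WT-DES. Here sample 3 of WT-DES was the second highest and not among the lowest, and the log2 change was −3.60 (SE 0.40, limma adjusted p = 1.25e-06).

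**Figure D2:**
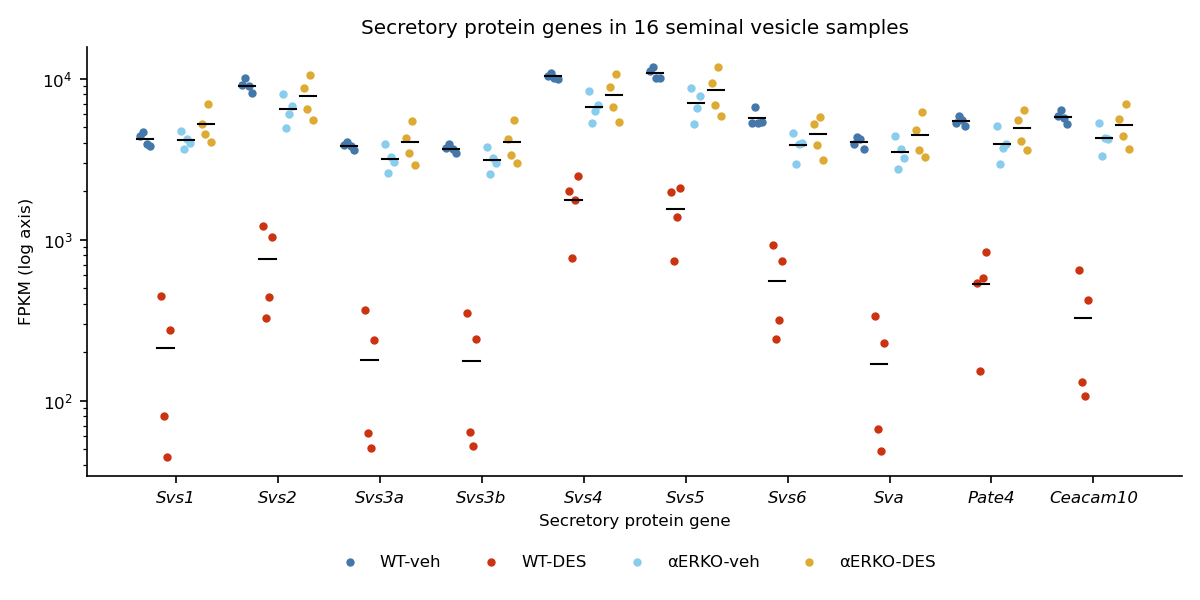
FPKM (log axis) of each secretory protein gene in the 16 samples, as 1 point per sample, in the order of sample number, with a black line at the mean of each group of 4. WT-DES points lie below those of the 3 other groups for every gene, from 45.0 FPKM (*Svs1*) to 2476 FPKM (*Svs4*).

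Among all 15988 tested genes the falls of the members were near the bottom of the distribution: *Sva* had the 16th lowest log2 change and *Svs4* the 159th lowest. Leaving out WT-DES sample 1, which held the highest value of 7 members, moved the fold between the means from 19.8 to 31.6 for *Svs1* and from 21.4 to 32.6 for *Svs3a*. The folds of all 10 members without that sample ranged from 6.18 to 35.1, and each of the 10 was still called lower when any single sample was left out. Quantile normalization left 9 of the 10 called lower, with *Svs4* at −0.48 (limma adjusted p = 0.129) and a median of −2.80 over the members.

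The loss was unequal between the members, so the make-up of the secretory transcripts changed. *Svs4* made up 15.9% to 17.0% of the members' summed FPKM in WT-veh and 22.7% to 36.8% in WT-DES. *Svs1* made up 6.38% to 6.99% in WT-veh and 0.937% to 5.07% in WT-DES. To test this without any scaling between samples, the log2 ratio of FPKM within each sample was taken for all 45 pairs of members. For 35 of the 45 pairs the ratios of WT-DES and WT-veh did not overlap (exact two-sided permutation test, p = 0.0286 for each of the 35, the smallest that 4 against 4 samples allow, and 0.0367 after adjustment over the 45 ratios). Among all pairs of the 2831 genes with a mean of at least 50 FPKM in 1 group and no value of 0, the ratio was likewise without overlap for 70.7%, so that a count of 35 of 45 is near the background and not particular to the members.

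The ratio of *Svs4* to every other member was higher in all WT-DES samples than in any WT-veh sample (9 of 9 ratios without overlap). Of the pairs of abundant genes 70.7% were without overlap, and the difference of the counts per member from this share was not tested. *Svs4* over *Svs3a* was 2.71, 2.68, 2.64 and 2.76 in WT-veh and 5.51, 12.2, 34.9 and 10.4 in WT-DES. *Svs5* gained on 8 other members and lost on 1, which was *Svs4*. *Sva* lost on 7 others and gained on 0. *Svs1* and *Svs3a* lost on 4 and 6 others and also gained on 0.

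Sample 3 of WT-DES stood apart in these ratios. *Pate4* over *Ceacam10* was 0.905 to 0.975 in WT-veh and 0.831, 1.18, 5.48 and 2.00 in WT-DES samples 1 to 4. The ratio was thus higher than in WT-veh in 3 of 4 samples and lower in sample 1, and the groups did not differ by the exact permutation test (p = 0.143, adjusted over the 45 ratios p = 0.161). *Svs5* over *Svs6*, the pair whose TATA windows differ at 1 base, was 1.79 to 2.09 in WT-veh and 2.15, 3.07, 4.36 and 2.87 in WT-DES. Without sample 3 of WT-DES, 36 of the 45 ratios did not overlap, and leaving out each of the 8 samples in turn gave 35 to 39. With fewer samples, overlap is less likely for any pair, and the background share was counted with all samples only. That sample was also the one with *TRBV16\*01* at 12.6% of its FPKM sum, and the part of this in the ratios was not tested.

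**Figure D3:**
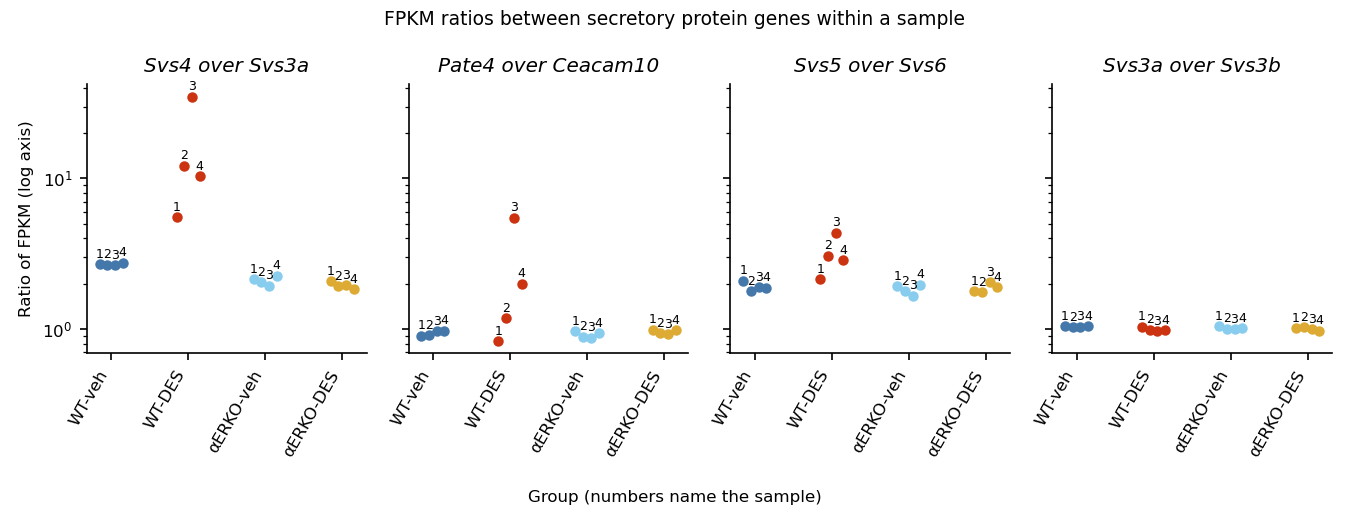
Ratio of FPKM (log axis) between 2 secretory protein genes within each sample, for 4 pairs, with the sample number above each point. *Svs4* over *Svs3a* is 2.64 to 2.76 in WT-veh and 5.51 to 34.9 in WT-DES, while *Svs3a* over its near-copy *Svs3b* stays near 1 in all 16 samples.

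The spread of the members between samples was widest in WT-DES, a description with no test. The highest WT-veh sample of a member exceeded the lowest by 1.10-fold to 1.25-fold, and the highest WT-DES sample exceeded the lowest by 2.85-fold (*Svs5*) to 9.95-fold (*Svs1*). These ratios were 1.29 to 1.72 for αERKO-veh and 1.71 to 2.01 for αERKO-DES. In the αERKO groups this spread was shared by the members. Sample 1 of αERKO-veh was the highest and sample 2 the lowest for all 10 genes, and in αERKO-DES sample 3 was the highest and sample 4 the lowest for all 10. In WT-DES the lowest sample was sample 2 for 5 genes and sample 3 for the other 5.

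No change of the secretory genes was called for loss of ERα alone. In αERKO-veh the 10 genes held 8.82% ± 1.11 (SD, n = 4) of the FPKM sum, and 0 of 10 were called lower than in WT-veh, where 2.63% of all tested genes were. By limma the log2 changes were between −0.65 (*Svs4*) and −0.02 (*Svs1*), with a lowest adjusted p of 0.182 and 0 of 10 at an unadjusted p under 0.05. All 10 estimates were below 0, but quantile normalization put 7 and a correction for transcript length 4 of them above 0, and sample weights led to a call for *Svs4* (log2 change −0.60, limma adjusted p = 0.0263). A limma model of these 2 groups alone, whose spread does not include that of WT-DES, gave a lowest adjusted p of 0.126 (*Svs6*) and again 0 of 10 at an unadjusted p under 0.05.

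The intervals do not exclude a moderate loss. *Svs4* had 8338, 5286, 6293 and 6849 FPKM in αERKO-veh, every sample below those of WT-veh, and a 95% confidence interval of the log2 change from −1.38 to 0.09. *Svs1* had 4699.6, 3636, 4236.5 and 4011 FPKM, within and around the WT-veh values, and an interval from −1.12 to 1.08. These widths include the spread of WT-DES, and the model of the vehicle groups alone gave −1.42 to 0.13 for *Svs4* and −0.52 to 0.49 for *Svs1*. Skeletal muscle markers summed to 599 FPKM in αERKO-veh sample 1, the highest sample of its group for all 10 members, and to 1387 to 2199 in the other 3, and to 1877 in WT-veh sample 4, the lowest of its group for 8 members, against 578 to 615 in the other 3. Their part in the result was not tested. For 4 of the 10 members (*Svs2*, *Svs4*, *Svs5* and *Svs6*) all αERKO-veh samples were below all WT-veh samples, as for 17.1% of the tested genes.

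Within samples the proportions of the members, in the deposited values, differed between the genotypes. For 28 of the 45 ratios αERKO-veh and WT-veh did not overlap (exact two-sided permutation test, p = 0.0286 each, adjusted over the 45 ratios p = 0.0459), as for 31.9% of the pairs of abundant genes. The 45 ratios share genes and samples, and the difference from this background was not tested. *Svs1* gained on 8 other members, by 0.63 on the log2 scale over *Svs4* and by 0.23 over *Svs3b*. *Svs4* over *Svs3a* was 1.94 to 2.26 in αERKO-veh, against 2.64 to 2.76 in WT-veh. Changes in this comparison went with transcript length over the 15049 tested genes with a length (Spearman's rho 0.552 across genes, which are not independent replicates). *Svs1* has the longest transcript of the members (2775 nt) and *Svs6* the shortest (535 nt). After removal of the trend with length from each sample, 23 of the 45 ratios did not overlap, and the log2 changes of the members were between −0.30 and 0.16. The adjusted p of 0.0459 and the share of 31.9% hold for the uncorrected values only. The count of 23 alone does not show whether the proportions differ beyond the trend with length.

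In the absence of ERα, no fall of the secretory genes with DES was detected. αERKO-DES SVs held 9.65% ± 2.08 (SD, n = 4) of their FPKM sum in the 10 genes, and 0 of 10 differed from αERKO-veh, where 1.49% of all tested genes were called. By limma the log2 changes were between 0.20 (*Svs6*) and 0.34 (*Svs3b*), with adjusted p from 0.654 to 0.768 and 0 of 10 at an unadjusted p under 0.05. *Svs4* had 8932, 6689, 10749 and 5374 FPKM in αERKO-DES, which overlapped the αERKO-veh values, and a 95% confidence interval of the log2 change from −0.52 to 0.95. *Sva* had 4829.8, 3605, 6197 and 3259 FPKM in αERKO-DES and 4388, 2733, 3655 and 3223 in αERKO-veh, with an interval from −0.67 to 1.33. In the model of the αERKO groups alone the intervals were −0.95 to 1.38 and −0.50 to 1.16. Their lower ends are above the changes of the same genes in WT. Of the 45 within-sample ratios 0 were without overlap between αERKO-DES and αERKO-veh, with a lowest exact permutation p of 0.0571 (0.692 adjusted over the 45 ratios), where 12.2% of the pairs of abundant genes were.

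Set against WT-veh, αERKO-DES differed in 0 of 10 genes, where 3.18% of all tested genes were called, with limma log2 changes from −0.43 (*Svs4*) to 0.28 (*Svs1*) and 0 of 10 at an unadjusted p under 0.05. *Svs2* illustrates the pattern with 8696, 6509.8, 10539.8 and 5543 FPKM in αERKO-DES, a range that encloses all 4 WT-veh values. Set against WT-DES, all 10 were higher in αERKO-DES, where 23.7% of all tested genes were, by 2.25 (*Svs4*) to 5.12 (*Svs1*) on the log2 scale. Quantile normalization ended the call for *Svs4* here too, at 0.35 (limma adjusted p = 0.257). These comparisons share samples with those above and are not independent of them.

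The difference between genotypes in the change with DES was tested as an interaction. All 10 genes had a more negative change in WT than in αERKO, where 26.9% of all tested genes were called in this direction. The difference ranged from −5.31 (*Sva*, SE 0.66, limma adjusted p = 5.99e-06) to −2.89 (*Svs4*, SE 0.49, limma adjusted p = 9.59e-05). Quantile normalization, which gives every sample the same set of values, ended the call for *Svs4* at −0.10 (limma adjusted p = 0.838), as did testing without a minimum on FPKM (−2.89, limma adjusted p = 0.0616), and the cause was not tested.

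**Figure D4:**
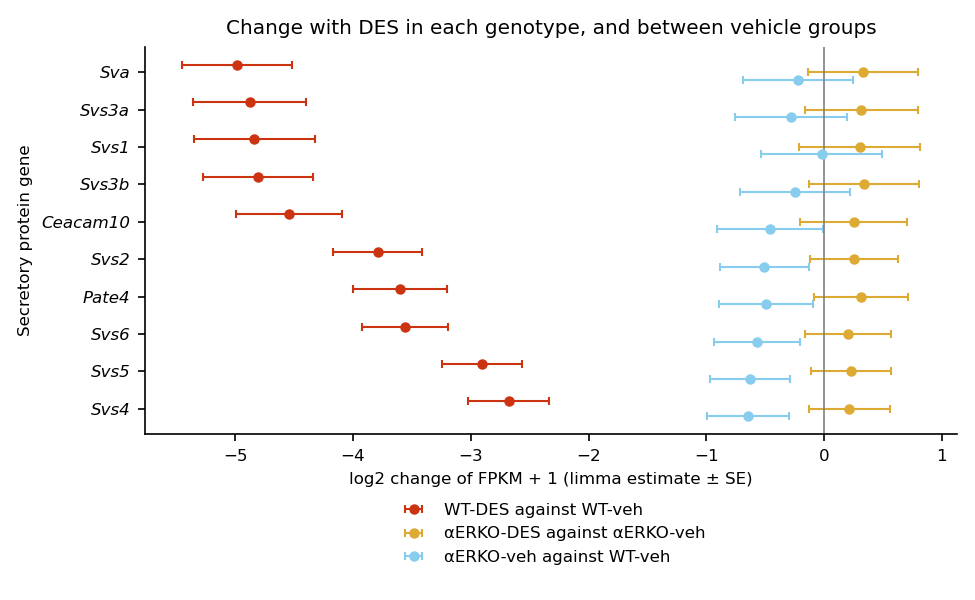
log2 change (limma estimate, bars ± SE) of each secretory protein gene with DES in WT mice, with DES in αERKO mice, and between the vehicle groups. The changes in WT run from −4.98 (*Sva*) to −2.68 (*Svs4*), and those in αERKO from 0.20 to 0.34.

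The chromosome 2 members were compared with the genes around them. Within 100 kb of the cluster on either side the annotation held 10 other protein-coding genes, all in the table. *Wfdc15b*, which encodes a small secreted protein of the WAP four-disulfide core family and whose left end lies 21.5 kb from that of *Svs2*, fell from a mean of 704 to 227 FPKM with DES in WT (log2 change −1.79, SE 0.30, limma adjusted p = 7.08e-05). *Slpi*, the gene for secretory leukocyte protease inhibitor on the other side of the cluster, rose from 8.66 to 50.4 FPKM (log2 change 2.21, SE 0.34, limma adjusted p = 3.07e-05). Of the 7 neighbours that were tested, 3 were called higher (*Slpi*, *Stk4* and *Matn4*) and 2 lower (*Wfdc15b* and *Kcns1*), where 28.9% and 23.9% of all tested genes were. The falls of the 6 members, from −4.88 to −2.68, were deeper than those of any tested neighbour in these estimates.

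**Figure D5:**
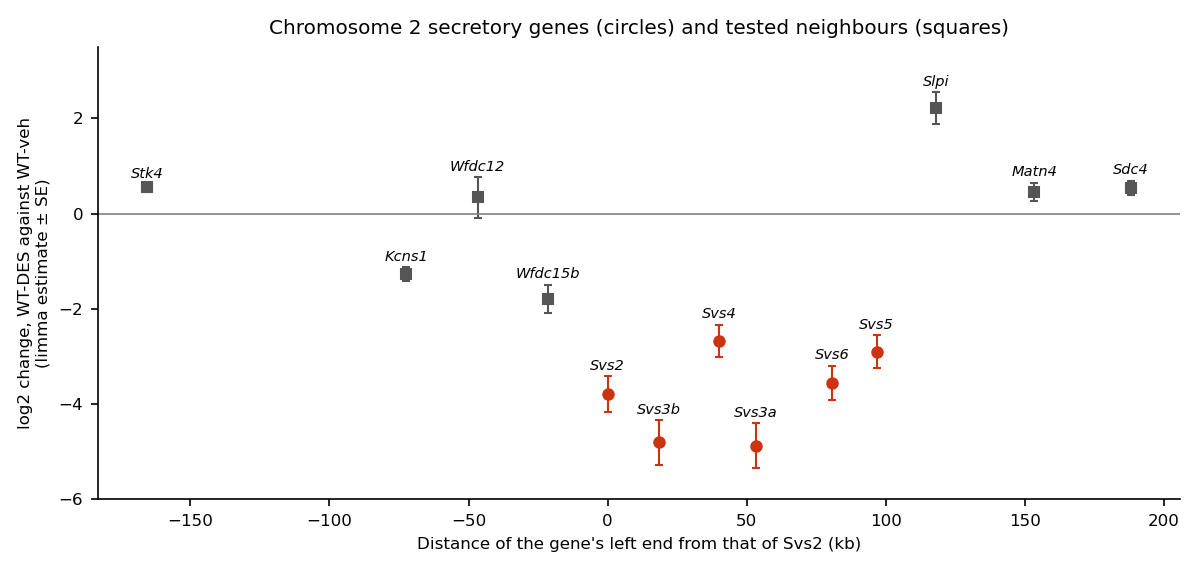
log2 change with DES in WT mice (limma estimate, bars ± SE) against the distance of each gene's left end from that of *Svs2* in kb, for the 6 secretory genes of chromosome 2 (circles) and the tested neighbours (squares). The circles lie between −4.88 and −2.68, *Wfdc15b* at −1.79 and *Slpi* at 2.21.

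The genes whose pattern over the 16 samples was most like the members' mean log2 level were sought among 2866 other genes with a mean of at least 50 FPKM in 1 group. They were *A630095E13Rik* (Pearson's r 0.999), *Spinkl* (0.999), *Spink3* (0.997), *9530003J23Rik* (0.997) and *Gadd45g* (0.991), given as a description in which the separation of WT-DES from the other groups weighs most. *Spink3*, the gene for a Kazal-type inhibitor that coats sperm, had 3056 to 3229 FPKM in WT-veh samples and 66.0 to 316 in WT-DES samples, and between 1499 and 3215 in the 8 αERKO samples. *Gadd45g*, for a growth arrest and DNA damage protein, had 146 to 164 FPKM in WT-veh samples, against 23.7 to 43.4 in WT-DES samples. *Svs2* followed the mean of the other members most closely (r 0.999) and *Svs4* least (r 0.964).

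Other secretory and plug genes of the SV and neighbouring glands were counted from lists. Of 9 tested genes for plug cross-linking, proteases and inhibitors, 5 fell and 2 rose in WT-DES relative to WT-veh, where 23.9% of all tested genes fell and 28.9% rose. *Spinkl* fell by 4.44, *Spink3* by 4.53 and *Tgm4*, the transglutaminase that cross-links SVS2, by 5.41 on the log2 scale (limma adjusted p = 2.48e-07, 1.79e-07 and 1.38e-06). Of 16 tested genes of a list of WFDC genes, inhibitors and neighbours of the wider chromosome 2 region, which also holds *Wfdc17* of another chromosome, 3 fell and 6 rose, with *Wfdc15b* lower, *Wfdc2* higher (log2 change 2.97, limma adjusted p = 0.000497) and *Wfdc10* at 0.87 without a call (limma adjusted p = 0.281). Of 11 tested relatives of *Svs1*, *Sva*, *Pate4* and *Ceacam10*, 5 fell and 2 rose. *Ceacam1* (log2 change −2.61) and *Ceacam2* (−1.99) fell (limma adjusted p = 7.30e-09 and 5.66e-07), while *Pip* at −1.28 was not called (limma adjusted p = 0.483).

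Markers of epithelium and of other cells also moved. Their counts in WT-DES stand against 23.9% of all tested genes called lower and 28.9% called higher. Of 10 SV epithelium markers 7 fell and 3 were not called in WT-DES, and they summed to 2078 to 2299.6 FPKM per WT-veh sample and to 1100.1 to 1355 per WT-DES sample. *Krt18*, *Krt19* and *Cldn3* fell by 1.07, 0.96 and 1.96 on the log2 scale (limma adjusted p = 4.98e-05, 1.41e-05 and 1.57e-05). Summed member FPKM per unit of summed epithelium marker FPKM was 6.51, 2.21, 4.34 and 7.82 in WT-DES samples 1 to 4, against 25.4 to 31.1 in the WT-veh samples and 20.2 to 33.6 in the 8 αERKO samples. This ratio was lower in WT-DES, with no overlap with the other groups. The markers did not all change alike, and whether their sum follows the number of secretory cells was not tested.

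Of 5 basal epithelium markers 3 rose (*Krt5* by 1.07, limma adjusted p = 0.00119) and 2 were not called (*Krt15* at 0.68 and *Krt14* at 0.49), with sums of 181 to 264 FPKM for WT-veh and 274 to 554 for WT-DES. Of 6 fibroblast markers 6 rose, among them *Dcn*, *Col3a1* and *Col1a2*, with sums of 731 to 881 and 1916 to 2091 FPKM. Of 10 leukocyte markers that were tested, 9 rose, such as *Lyz2* by 2.17 and *Csf1r* by 2.15 on the log2 scale, and 1 fell: *Cd52*, at a mean of 2919 FPKM in WT-veh and 452 in WT-DES, dominated the sum of this list (2913 to 3118 and 769 to 1151 FPKM). Of 6 smooth muscle markers 5 fell, including *Tagln*, *Acta2* and *Cnn1*, with sums of 2993 to 3734 FPKM in WT-veh, 3580.0 in WT-DES sample 1 and 791 to 1256 in the other WT-DES samples. WT-DES sample 1 was also the highest WT-DES sample for 7 members.

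Markers of tissue next to the SV were counted as well, and whether such tissue was in the samples was not tested. The prostate list shares *Tgm4* with the plug list above. Of 7 prostate lobe markers that were tested, 5 fell and 1 rose in WT-DES, with *Pbsn*, *Tgm4* and *Defb50* at log2 changes of −5.46, −5.41 and −3.93, with sums of 4621 to 7171 FPKM for WT-veh, 76.4 to 464 for WT-DES, 5371 to 7178 for αERKO-veh and 3656 to 4842 for αERKO-DES. Of 8 skeletal muscle markers 2 fell in WT-DES (*Acta1* by 3.23 and *Ckm* by 2.38, with *Mylpf* at −1.71 not called), with sums of 578 to 1877 FPKM for WT-veh, 38.6 to 343 for WT-DES, 599 to 2199 for αERKO-veh and 479 to 679.97 for αERKO-DES. In αERKO mice 6 of the 8 fell with DES, where 1.49% of all tested genes were called. Of 6 adipose markers 4 rose in WT-DES (*Car3* by 1.71, while *Fabp4* at 1.02 and *Cfd* at 0.96 were not called), and 4 fell with DES in αERKO mice, against the same 1.49%. They summed to 239.9 to 1203 FPKM for WT-veh, 987 to 2241 for WT-DES, 143 to 1256 for αERKO-veh and 17.9 to 68.0 for αERKO-DES. Apart from 2 skeletal muscle markers in WT-veh sample 2 and 1 leukocyte marker in αERKO-DES sample 4, no marker of these lists was at 0. The part of these cell types in the level of the secretory genes was not tested.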

How the data were processed

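FPKM per gene in 16 SV samples were made by the authors from paired-end Illumina reads mapped to mm10 (GRCm38) with TopHat 2.0.4 and quantified with Cufflinks 2.0.2. The deposited FPKM values have 2 decimals. The gene annotation and any scaling between libraries are not given in the sources used here. FPKM hold no counts, so the depth is unknown. The lowest non-zero values of 1574 low genes lay at 0.968 to 1.01 of their median over the samples in every sample.

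Values were analysed as log2(FPKM + 1) with limma 3.58.1 in R 4.3.3, fitting the 4 group means to all 16 samples together. The moderated variances (eBayes) followed a trend with level, and p-values were adjusted by Benjamini-Hochberg over the 15988 genes whose mean was over 1 FPKM in some group. A difference on this scale understates the change of low genes. The interaction is the DES effect of WT less that of αERKO, called at an adjusted p no higher than 0.05 and 1.5-fold. No column was identical to another. P-values measure the spread between samples as labelled. Ratios between members were compared with an exact permutation test (two-sided, 70 ways to divide 8 samples), in Python 3.11.15 with scipy 1.17.1, a step added after the data were seen, and the same overlap was counted for all pairs of abundant genes. The limma step was tested on simulated data.

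The members and the marker and pathway lists were chosen with earlier results of these data known, so counts over them are descriptions. Genes named besides the members are, for each list, the 3 tested genes with the highest mean FPKM, the 5 genes most like the members, the 20 most abundant genes of WT-veh, *Esr1*, and genes that are no members and held over 2% of the FPKM sum in a sample. Neighbours of the chromosome 2 members were named after their values were seen. Some genes that this rule names are not reported here. Coordinates and transcript lengths are from GENCODE M21 and promoters from RefSeq GRCm38.p6. Alternatives comprised a 0.1 pseudocount, no minimum or a mean FPKM above 5, folds from the log2 values, a replicate block, sample weights, fits of only the compared groups, no trend in the variance, 5 rescalings, an adjusted p of at most 0.01, leaving out each sample, and, added after the data were seen, a correction for transcript length and leaving out the 4 samples with a large other gene.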

Additional observations from a re-analysis of the deposited data

Results flagged for a closer look

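The change with DES differed between WT and αERKO mice for all 10 secretory genes by the interaction test of limma. On the log2 scale the difference (WT less αERKO) was −5.31 for *Sva*, −5.19 for *Svs3a*, −5.14 for *Svs1*, −5.14 for *Svs3b*, −4.79 for *Ceacam10*, −4.05 for *Svs2*, −3.91 for *Pate4*, −3.76 for *Svs6*, −3.13 for *Svs5* and −2.89 for *Svs4*.

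*Svs6* in WT-veh sample 2 was far above the other 3 samples of its group, at 6658.7 FPKM, and passed Dixon's test for a single outlying sample. It was 1 of the 40 combinations of a gene and a group examined, where chance marks about 1 in 20. The same sample was the highest of its group for all 10 genes.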

How the results depend on the processing

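All 10 members were called lower in WT-DES than in WT-veh, higher in αERKO-DES than in WT-DES and lower in the interaction under every alternative other than quantile normalization and, for the interaction, no minimum on FPKM. Quantile normalization left *Svs4* without a call at −0.48, 0.35 and −0.10 (limma adjusted p = 0.129, 0.257 and 0.838), and without a minimum the interaction of *Svs4* kept its −2.89 at an adjusted p of 0.0616. Dividing by the FPKM sum moved the median of all tested genes in WT-DES against WT-veh from −0.01 to 0.49 and that of the members from −4.17 to −3.59, and quantile normalization moved the members' median to −2.80. With sample weights 1 member was called in αERKO-veh against WT-veh, *Svs4* at −0.60 (limma adjusted p = 0.0263), and 0 under the other alternatives. Fits of only the compared groups give no interaction.

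Some uncalled differences changed sign, among them that of *Svs4* in αERKO-veh against WT-veh, at −0.65 in the values reported. In αERKO-veh against WT-veh, *Svs1* was at 0.22 as a share of the sum, 0.00407 with median-ratio scaling, 0.16 and 0.19 with equal totals without the 20 most abundant genes or the members, and 0.0634 after the length correction, and *Sva* was at 0.0120 as a share of the sum. The length correction put *Svs3a* at 0.00928, *Svs3b* at 0.0346 and *Sva* at 0.16, and quantile normalization put *Svs1* at 0.33, *Svs2* at 0.13, *Svs3a* at 0.0583, *Svs3b* at 0.16, *Svs4* at 0.26, *Sva* at 0.0934 and *Ceacam10* at 0.0627. Quantile normalization also gave −0.0411 for *Svs3a*, −0.38 for *Svs4*, −0.13 for *Svs6* and −0.0627 for *Ceacam10* in αERKO-DES against αERKO-veh, and 0.13 for *Svs2* in αERKO-DES against WT-veh. In that last comparison sample weights gave −0.0281 for *Svs3a* and −0.00873 for *Sva*, and the length correction 0.0182 for *Pate4*. Leaving out 1 sample gave −0.0813 to 0.0421 for *Svs1* in αERKO-veh against WT-veh, and in αERKO-DES against WT-veh −0.12 to 0.18 for *Svs3a*, −0.0736 to 0.22 for *Svs3b* and −0.0668 to 0.24 for *Sva*. The cause was not tested.

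Ratios without overlap between αERKO-DES and αERKO-veh, 0 of 45, became 4 after the length correction and 0 to 2 when 1 sample was left out. The share of 12.2% over pairs of abundant genes was counted for all samples without that correction. Replicate numbers did not pair the samples: deviations from the group means correlated at −0.215 to 0.277 over 20 same-numbered pairs, above 0.1 in 3. The replicate block changed no call of a member, and the genes called in WT-DES against WT-veh went from 8428 to 8409. Without the 4 samples with a large other gene, 10, 0, 0, 0, 10 and 10 members were called in the 6 comparisons, as with all samples. FPKM without counts limit what can be said of low values.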

Other observations

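The machinery that loads and folds secreted proteins in the endoplasmic reticulum fell with the members. Of 29 tested genes of the protein secretion pathway, 28 fell in WT-DES and 1 rose, where 23.9% of all tested genes fell and 28.9% rose. In the interaction 27 had a more negative change in WT, as had 26.9% of all tested genes. *Ssr4*, a subunit of the translocon-associated complex, went from 887 to 149 FPKM (log2 change −2.57, limma adjusted p = 1.76e-09). *P4hb*, protein disulfide isomerase, and *Calr*, the chaperone calreticulin, had log2 changes of −1.83 and −1.84 (limma adjusted p = 4.74e-09 and 3.83e-08). The median over the list was −1.46, against −4.17 for the members and −0.01 for all tested genes.

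Of 16 tested genes of androgen signalling, 9 fell and 4 rose in WT-DES, against the same 23.9% and 28.9% of all tested genes. *Fkbp4*, a co-chaperone of steroid receptors, fell by 1.61 and *Hsd17b10*, a steroid dehydrogenase, by 0.61 on the log2 scale (limma adjusted p = 7.65e-09 and 5.66e-05).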
